A study of Homo sapiens with 40 samples.

Results

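The 10 genes described here are germline and meiosis genes of A549, an established human lung adenocarcinoma line: DAZL, DDX4, MAEL, TDRD1, TDRD9, SYCP2, SYCP3, STK31, TEX14 and STAG3. They were taken by symbol from a count table of 62486 gene IDs, and all 10 were found. Control A549 cells (Control, CT) were compared with A549 cells in which SETDB1 had been disrupted by CRISPR/Cas9 (SETDB1 knockout, KO), with 3 RNA-seq libraries of total RNA per genotype. The labels give no treatment beyond the knockout, and they do not say whether the KO cells were a single clone or whether the libraries came from separate cultures, so p-values measure the spread between these libraries, which may be technical. SYCP2 rose 19.2-fold in KO cells, STK31 and STAG3 rose 1.36-fold and 1.33-fold, SYCP3 was expressed and did not pass the test, and the other 6 genes stayed below the level at which they could be tested.

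Germline genes serve the making of eggs and sperm and are shut in nearly all somatic tissues. Meiotic genes build the axis that holds homologous chromosomes together: SYCP2 and SYCP3 form its lateral elements, and STAG3 is a subunit of meiotic cohesin. DDX4, MAEL, TDRD1 and TDRD9 act in the PIWI-interacting RNA (piRNA) pathway, which silences transposons in germ cells. In somatic and embryonic stem cells these promoters are known to be held silent by DNA methylation, by a Polycomb complex that binds through E2F6 and through MGA with MAX, and by H3K9 methylation, the mark that SETDB1 places. Cancer cells, A549 among them, can express some of these genes.

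Library totals ranged from 18065062 to 48364919 counts. SETDB1 itself was read first. It was measured at 37.4, 39.5 and 38.7 CPM (counts scaled to equal library size by TMM, the CPM scale used throughout) in the control libraries and at 23.4, 21.2 and 21.0 CPM in the KO libraries, so the groups did not overlap while the transcript was still present in KO cells (log2 fold change -0.82, SE 0.060, edgeR adjusted p 1.7e-12). The epithelial keratin and adhesion markers KRT8, KRT18, KRT7, KRT19, EPCAM and CDH1 were found in every library. Their summed level was 4452 to 4874 CPM in control and 10801 to 11604 CPM in KO libraries. KRT8, KRT18 and KRT7 lie on chromosome 12, where the median log2 fold change of tested genes was 0.37. Of 9 blood, endothelial and fibroblast markers matched, 6 had at most 3 counts in every library. The other 3 were tested, and 3 were called higher and 0 lower. CDH5, an endothelial cadherin, rose from 0.288 ± 0.083 to 4.52 ± 0.67 CPM (SD, n = 3; edgeR adjusted p 1.5e-14). It passed the expression filter through the KO libraries alone, so its test could hardly have pointed down. The same holds for COL3A1, which rose from 0.319 to 0.872 CPM (edgeR adjusted p 0.00061). COL1A1 rose from 3.10 to 3.83 CPM (edgeR adjusted p 0.041). The summed level of the 9 was 3.64 to 3.90 CPM in control and 8.58 to 9.92 CPM in KO libraries. Of 7 spermatid markers, PRM1, PRM2, TNP1, AKAP4 and SPACA1 had 0 counts in all 6 libraries, TNP2 had 1 count in 1 library, and ACRV1 did not pass the test (edgeR adjusted p 0.24). Of 6 testis somatic markers, 3 were tested. Of these, 2 were called higher and 0 lower, against 32.8% and 30.0% of all tested genes. INSL3, 1 of the 2, passed the expression filter through the KO libraries alone. The summed level of the 6 was 10.2 to 14.9 CPM in control and 14.2 to 17.7 CPM in KO libraries. The summed level of the spermatid markers was 0.686 to 0.890 CPM in control and 0.365 to 0.872 CPM in KO libraries. The part of these marker genes in the values below was not tested.

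The sequences before the start sites are shown for 3 of the 4 expressed members, for silent DAZL and for TDRD9, which had counts in KO libraries only, so that their likeness can be seen beside the levels. They come from RefSeq on GRCh38.p14, while the counts were made on hg19, and no position was carried between the builds. Each run ends at the base before the gene's most upstream start and is given 5′ to 3′ on the gene's strand. Capitals mark the letters TCCCGC or, on the other strand, GCGGGA, the core that E2F6 is known to bind. The run of SYCP2 is shorter because FAM217B starts 142 bases away on the other strand. The positions are chr20:59933638-59933778 (minus strand) for SYCP2, chr7:100177474-100177723 (plus) for STAG3, chr12:101739463-101739712 (minus) for SYCP3, chr3:16605424-16605673 (minus) for DAZL and chr14:103928206-103928455 (plus) for TDRD9.
SYCP2: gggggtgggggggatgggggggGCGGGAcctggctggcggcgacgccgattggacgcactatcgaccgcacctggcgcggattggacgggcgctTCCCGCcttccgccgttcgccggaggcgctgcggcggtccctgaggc
STAG3: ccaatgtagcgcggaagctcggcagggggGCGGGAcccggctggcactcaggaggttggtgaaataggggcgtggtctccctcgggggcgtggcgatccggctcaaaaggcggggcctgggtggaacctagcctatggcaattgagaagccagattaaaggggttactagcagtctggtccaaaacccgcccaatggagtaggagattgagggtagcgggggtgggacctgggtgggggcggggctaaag
SYCP3: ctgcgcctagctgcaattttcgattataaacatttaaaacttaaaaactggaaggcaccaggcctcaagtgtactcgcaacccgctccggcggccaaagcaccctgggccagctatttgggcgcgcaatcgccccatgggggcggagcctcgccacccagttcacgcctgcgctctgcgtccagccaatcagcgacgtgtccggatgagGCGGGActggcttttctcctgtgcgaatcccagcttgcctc
DAZL: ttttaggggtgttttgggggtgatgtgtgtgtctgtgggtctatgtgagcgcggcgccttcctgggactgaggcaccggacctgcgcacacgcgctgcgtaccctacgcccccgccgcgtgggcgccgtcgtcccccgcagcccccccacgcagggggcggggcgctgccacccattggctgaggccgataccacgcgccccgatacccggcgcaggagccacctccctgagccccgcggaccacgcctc
TDRD9: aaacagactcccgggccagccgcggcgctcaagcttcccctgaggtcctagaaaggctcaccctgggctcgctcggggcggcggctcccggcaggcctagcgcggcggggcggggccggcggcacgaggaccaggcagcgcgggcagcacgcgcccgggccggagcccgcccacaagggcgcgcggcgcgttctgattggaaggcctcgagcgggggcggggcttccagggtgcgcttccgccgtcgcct

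Of the 10 members, 9 were in the RefSeq promoter table, TEX14 not among them. Over the full 250 bases before the most upstream start that the table gives, the E2F core on either strand was present in 4 of 9: SYCP2 (2 matches, beginning 119 and 47 bases before the start), STK31 (2), SYCP3 (1) and STAG3 (1). These 4 are the members expressed in the libraries, and the window of DAZL, DDX4, MAEL, TDRD1 and TDRD9 held no such letters. For STK31, DDX4 and TDRD1 the window does not end at the RefSeq gene start. Their motif matches and CG pairs may therefore not describe the promoter. The core was found in 23.4% of 27305 such windows. That share was not matched for base content, and the core is rich in G and C. The median window was 57.6% G or C. The windows of SYCP2, STK31, STAG3 and SYCP3 were 76.4%, 64.0%, 63.2% and 59.2%. Members without the core ran from 33.6% in DDX4 to 85.6% in MAEL. The E-box CACGTG, the letters bound by MAX with its partners, was present in STK31 (1 match) and TDRD1 (2 matches), against 6.46% of all windows. Both motifs were searched on both strands and counted whether or not they overlapped, and the matches in STK31 do not overlap. These matches are a description of letters, noticed with the levels in view, and say nothing of binding in these cells. CG pairs in the windows numbered 33 for SYCP2, 19 for SYCP3, 19 for STK31, 14 for STAG3, 28 for DAZL, 35 for TDRD9, 51 for MAEL, 13 for TDRD1 and 0 for DDX4, where the median over all windows was 10.0. In windows that end at the RefSeq gene start, DAZL, TDRD9 and MAEL held 28 to 51 pairs. SYCP2, SYCP3 and STAG3 held 14 to 33. These ranges overlap, and whether the classes differ was not tested.

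SYCP2, a lateral element protein of the synaptonemal complex, had the largest fitted change of the 4 members tested. The control libraries had 106, 62 and 116 counts and the KO libraries 1938, 3675 and 1617. In CPM these were 4.49, 3.42 and 3.98 in control and 84.4, 74.4 and 71.9 in KO, so SYCP2 was present in control cells and lay far higher in every KO library. The log2 fold change was 4.26 (SE 0.086, 95% interval 4.08 to 4.44, edgeR adjusted p 1.0e-23). Of 17767 genes tested, 1.91% had a larger log2 fold change, and 2.65% were called at least 10-fold higher. Over 16 alternative settings the value ranged from 4.19 to 4.35.

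SYCP3, the partner of SYCP2 in the lateral element, did not follow it. It had 37, 35 and 45 counts in control and 48, 61 and 22 in KO libraries, which gave 1.57, 1.93 and 1.54 CPM against 2.09, 1.24 and 0.979 CPM. KO replicate 1 lay above all control libraries and the other KO libraries lay below them, so the groups overlapped. The log2 fold change was -0.25 (SE 0.22, 95% interval -0.71 to 0.21, edgeR adjusted p 0.34). Without KO replicate 1 it was -0.52 and passed the test (edgeR adjusted p 0.042). SYCP3 lies on chromosome 12, where the median over 854 tested genes was 0.37 on the log2 scale. Its span overlaps that of CHPT1 in RefSeq, and how reads in the overlap were assigned is not stated; CHPT1 rose by 0.17 on the log2 scale (edgeR adjusted p 0.0042).

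The remaining synaptonemal complex genes were named after their values were seen, because they complete the structure that SYCP2 belongs to. SYCP1, the transverse filament that joins the axes, and TEX12 of the central element had 0 counts in all 6 libraries. SYCE1 had 1 count, SYCE3 5 counts and C14orf39 2 counts over the 6 libraries together. SYCE2, another central element gene, rose from 0.394 ± 0.10 to 0.882 ± 0.094 CPM (SD, n = 3; log2 fold change 1.23, SE 0.30, edgeR adjusted p 0.00076). SYCE2 passed the filter through the KO libraries alone, so its test could hardly have pointed down. Of the 8 genes of this complex, SYCP2 and SYCP3 passed the filter in both genotypes, and 5 were too low to test.

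STAG3, the meiotic counterpart of the cohesin subunits STAG1 and STAG2, was expressed in every library. It was measured at 8.35, 9.15 and 8.44 CPM in control and 11.2, 11.8 and 10.9 CPM in KO libraries. The groups did not overlap. The log2 fold change was 0.41 (SE 0.085, 95% interval 0.23 to 0.58, edgeR adjusted p 0.00014). STAG3 has near-identical partial copies on chromosome 7, and how shared reads were counted is not stated, so its level is uncertain. Among these copies STAG3L4 rose by 0.32 on the log2 scale (SE 0.080, edgeR adjusted p 0.0011), STAG3L5P fell by 0.29 (SE 0.080, edgeR adjusted p 0.0029) and STAG3L3 did not pass (0.41 on the log2 scale, SE 0.19, edgeR adjusted p 0.064; 0.63 and called without control replicate 3). CASTOR3P, a transcribed pseudogene whose span overlaps that of STAG3, rose from 23.6 ± 1.5 to 33.9 ± 0.34 CPM (SD, n = 3; log2 fold change 0.53, edgeR adjusted p 1.2e-08). PVRIG, which also overlaps that span, did not pass (log2 fold change -0.028, SE 0.26, edgeR adjusted p 0.93). The part of these overlapping genes in the STAG3 value was not tested.

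The other meiotic cohesin subunits moved in different ways (REC8 and RAD21L1 were named after their values were seen). SMC1B, the meiotic form of SMC1A, had 9, 5 and 13 counts in control and 57, 109 and 36 in KO libraries. It rose from 0.368 ± 0.086 to 2.10 ± 0.45 CPM (SD, n = 3; log2 fold change 2.47, SE 0.26, edgeR adjusted p 3.1e-09). Like SYCE2, it passed the filter through the KO libraries alone. REC8, the meiotic kleisin, fell from 4.72 ± 0.71 to 3.68 ± 0.44 CPM (SD, n = 3; log2 fold change -0.33, SE 0.13, edgeR adjusted p 0.029), with overlapping groups. That call was lost without control replicate 2 (edgeR adjusted p 0.16), without KO replicate 1 (0.11) and without KO replicate 2 (0.072), and under library size scaling, DESeq2, thinning and no expression filter. RAD21L1, the other meiotic kleisin, had 3 counts over all 6 libraries.

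**Figure D1:**
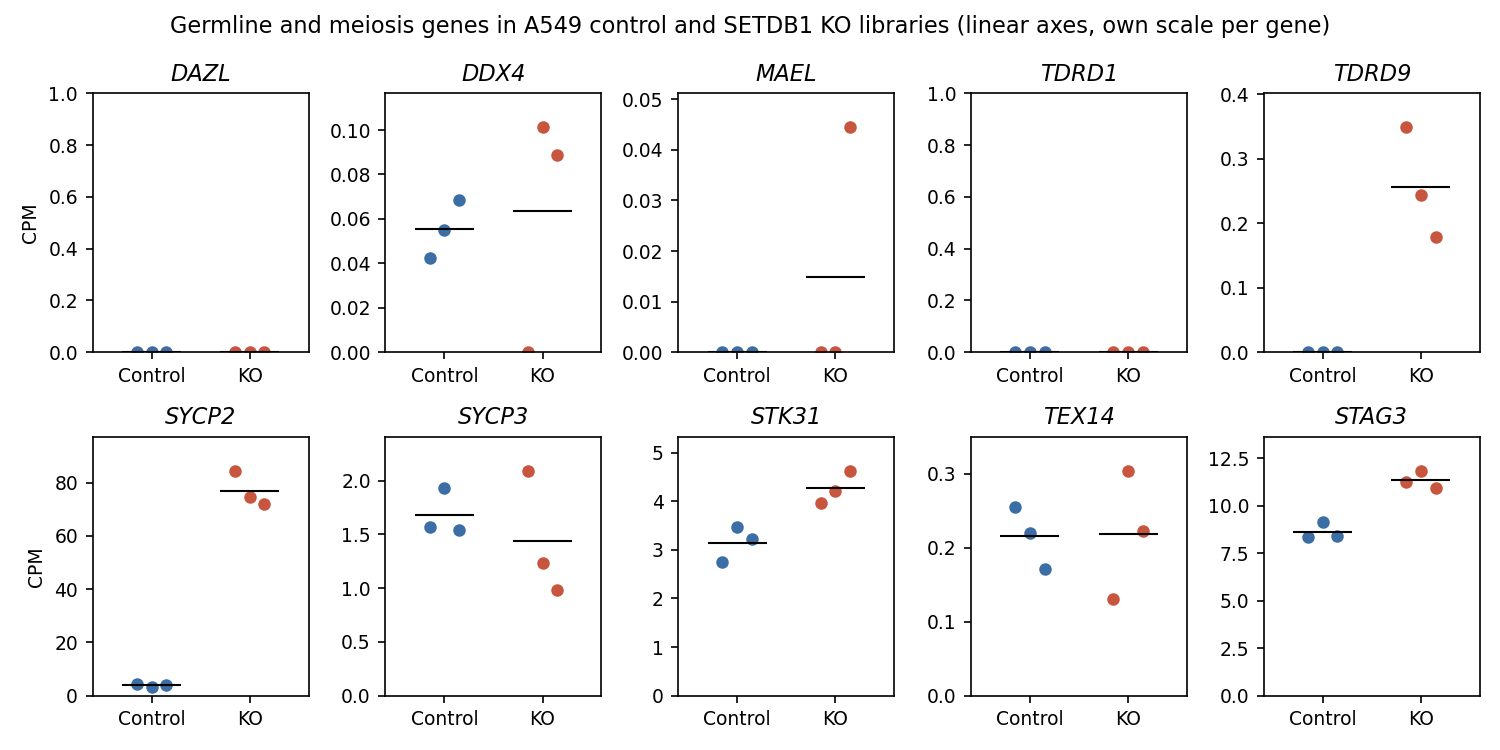
CPM of the 10 members in each library on linear axes with a scale of their own; points are libraries, 3 per genotype, and lines are means. SYCP2, STK31, STAG3 and TDRD9 have every KO library above every control library, and DAZL and TDRD1 lie at 0 throughout.

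STK31, a kinase with a tudor domain made mainly in testis, rose slightly. It was measured at 2.76, 3.47 and 3.22 CPM in control and 3.97, 4.21 and 4.63 CPM in KO libraries, with no overlap. The log2 fold change was 0.44 (SE 0.13, 95% interval 0.17 to 0.71, edgeR adjusted p 0.0043). With all libraries thinned to the smallest total it was 0.34 and no longer passed (edgeR adjusted p 0.077). TEX14, needed for the bridges between dividing germ cells, stayed at trace level. It had 6, 4 and 5 counts in control and 3, 15 and 5 in KO libraries, or 0.215 ± 0.042 and 0.219 ± 0.087 CPM (SD, n = 3), and its groups overlapped.

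The piRNA and germ cell RNA-binding members were silent or nearly so in both genotypes. DAZL, a regulator of germ cell translation, and TDRD1, a tudor scaffold of the piRNA machinery, had 0 counts in all 6 libraries. MAEL, which is needed for transposon silencing in germ cells, had 1 count, in KO replicate 3. For a gene with no count, 3 counts over a genotype's libraries allow a level of up to 0.0423 CPM in control and 0.0316 CPM in KO cells, counting error only. DDX4, the germ cell RNA helicase also called VASA, had 1, 1 and 2 counts in control and 0, 5 and 2 in KO libraries, with overlapping groups. It was not given a test in the main analysis, and an exact two-sided permutation test of its CPM gave p = 0.90.

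TDRD9, a helicase with a tudor domain that works with piRNAs, was seen in KO libraries only. It had 0 counts in each control library and 8, 12 and 4 counts in the KO libraries, or 0.349, 0.243 and 0.178 CPM. The pooled KO level was 5.98-fold above a floor of 3 counts over the control libraries. This value allows for no error in the KO counts, so it is not a lower bound. An exact two-sided permutation test of the CPM gave p = 0.10, which is the smallest p that 3 libraries against 3 can reach. TDRD9 failed the expression filter. With no filter edgeR called it (adjusted p 1.2e-05), where 30.9% of 38852 genes were called. No count in control and more than 3 in KO libraries was found for 844 genes of the table, and the reverse for 217.

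Taken by class, 4 members were expressed (at least 1 CPM in all libraries of a genotype), 3 were at trace level and 3 were not detected (no library above 3 counts). The 4 expressed members passed the filter in both genotypes, so none was tested only because it was high in KO cells. Of these, 3 were called higher and 0 lower by edgeR, where 62.8% of all tested genes were called, 32.8% higher and 30.0% lower. Of the 4, SYCP2 alone was called at least 2-fold higher, against 9.86% of tested genes. Groups without overlap and higher KO levels were seen for 3 of the 4, against 34.1% of tested genes. With 4 tested genes these shares are descriptions, and the number of members called is near the share for the whole table. The median log2 fold change of the 4 was 0.42, and that of all tested genes was 0.0038.

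**Figure D2:**
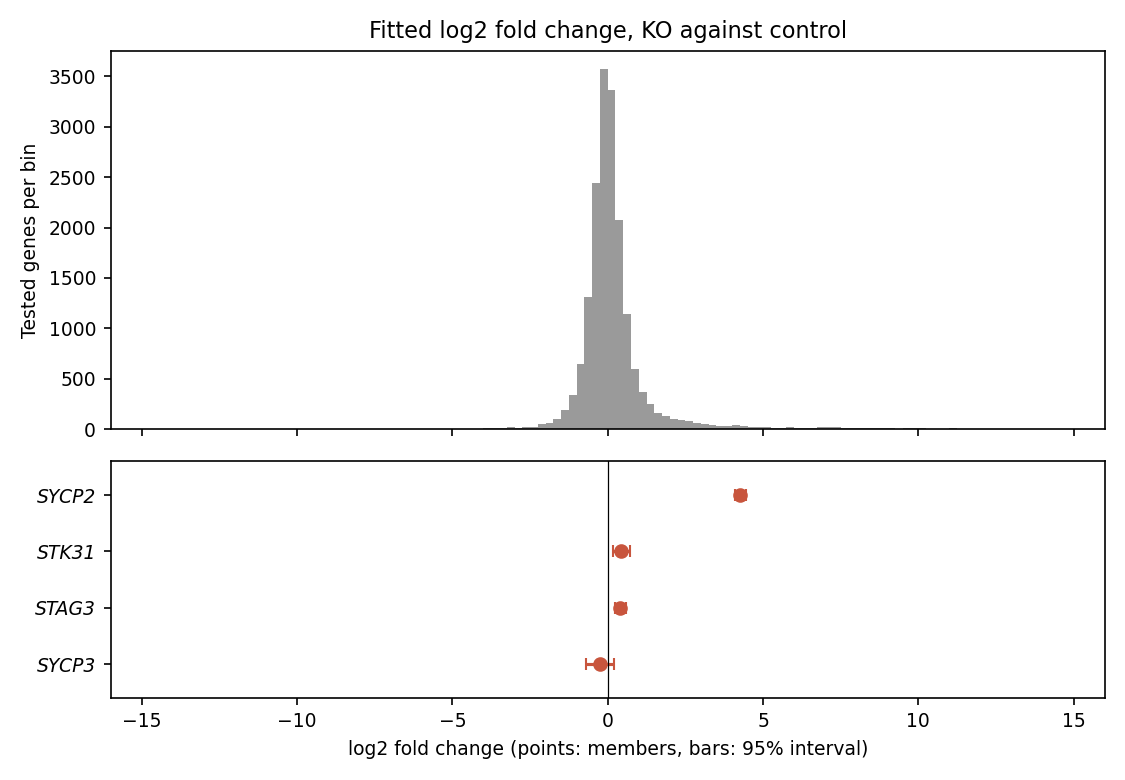
Upper panel, number of tested genes by log2 fold change, KO against control; lower panel, the 4 tested members with 95% intervals on the same axis. SYCP2 at 4.26 lies in the right tail, STK31 and STAG3 lie near 0.4, and the interval of SYCP3 includes 0.

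The genes next to the members were read from their order on GRCh38.p14 in RefSeq, taking the 5 tested genes on each side. FAM217B, which starts 142 bases from SYCP2 on the other strand, did not pass the test: it was measured at 14.8 ± 1.3 CPM in control and 16.1 ± 0.013 CPM in KO cells (SD, n = 3; log2 fold change 0.10, SE 0.074, edgeR adjusted p 0.23). PHACTR3, the tested gene on the other side of SYCP2, had 2, 0 and 0 counts in control and 16, 36 and 16 in KO libraries, a ratio of 25.4 (counting interval 6.77 to 214), and rose (edgeR adjusted p 2.0e-07). PHACTR3 passed the filter through the KO libraries alone, so its test could hardly have pointed down. CDH4, a cadherin and the third tested gene on the side of FAM217B, fell by 2.51 on the log2 scale (SE 0.077, edgeR adjusted p 4.3e-20). The 10 neighbours of SYCP2 therefore held 3 genes called higher and 3 called lower, with a median of 0.11. These counts are near the shares over all tested genes, 32.8% higher and 30.0% lower.

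Next to STK31, FAM221A rose from 0.696 ± 0.081 to 2.88 ± 0.12 CPM (SD, n = 3; log2 fold change 2.03, SE 0.19, edgeR adjusted p 4.0e-10), and PALS2 on the other side fell by 0.17 on the log2 scale (SE 0.060, edgeR adjusted p 0.016). The call of PALS2 was lost without control replicate 3 (edgeR adjusted p 0.077), without KO replicate 2 (0.12) and with no expression filter (0.12). Around STAG3, 3 of 10 neighbours were called higher and 0 lower, against 32.8% and 30.0% of all tested genes. The number called higher was thus near the share for the whole table. The median log2 fold change of these neighbours was 0.29. GPC2, a glypican beside STAG3, rose by 0.57 on the log2 scale (SE 0.21, edgeR adjusted p 0.021), a call that was lost without control replicate 1 (edgeR adjusted p 0.12), control replicate 2 (0.051) or KO replicate 3 (0.069), with DESeq2 (adjusted p 0.090) and with libraries thinned to equal totals (edgeR adjusted p 0.19). The medians of the 10 neighbours of the other members ran from -0.26 beside DAZL to 0.17 beside SYCP3.

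**Figure D3:**
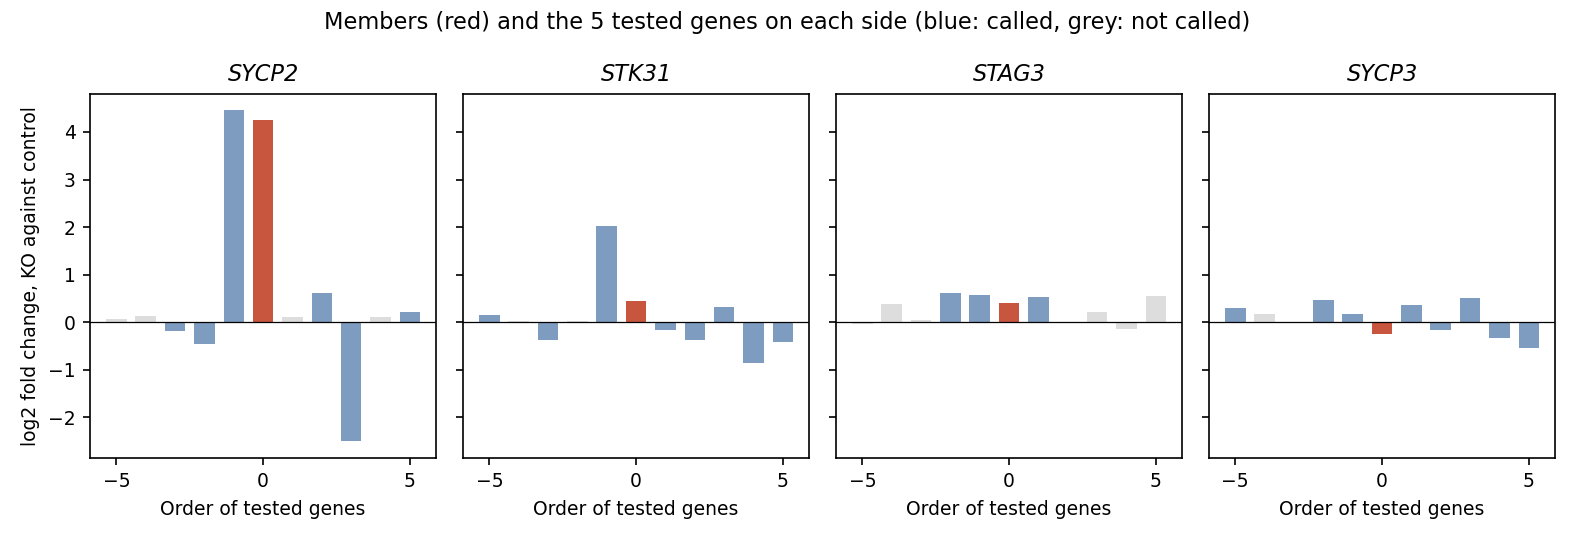
log2 fold change of SYCP2, STK31, STAG3 and SYCP3 (red) and of the 5 tested genes on each side, in gene order; blue bars passed an adjusted p of 0.05 and grey bars did not. The bar of SYCP2 at 4.26 stands beside PHACTR3 at 4.46 on 1 side and FAM217B at 0.10 on the other.

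Other germline genes were read from 3 lists: piRNA pathway genes, genes of meiotic chromosomes, and genes of germ cell identity. With the members these made 106 genes with a row in the table, of which 42 were not detected (23 had no count at all), 30 were at trace level and 34 were expressed. Most of these genes were thus silent or barely detected. Of all 62486 gene IDs in the table, 35359 had no library above 3 counts and 23634 had no count. Those IDs include pseudogenes and noncoding RNA genes, so they are not a like background. The share among protein-coding genes was not computed. Of the 96 genes that are not members, 35 passed the filter, and 8 of those passed through the KO libraries alone. These 8 could hardly have been called lower. Among the 26 that passed in both genotypes, 9 were called higher and 12 lower by edgeR, or 80.8%, where 64.0% of all genes passing in both were called. The direction of the calls was mixed.

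Of 22 other piRNA pathway genes, 10 were tested, and 4 were called higher and 2 lower, against 32.8% and 30.0% of all tested genes. PIWIL1 and TDRD5 passed the filter through the KO libraries alone. The median log2 fold change was 0.20 with these 2 genes and -0.025 over the 8 that passed in both genotypes, where 2 were called higher and 2 lower. PIWIL1, a PIWI protein that carries piRNAs, had 0, 0 and 1 counts in control and 23, 57 and 26 in KO libraries, a ratio of 79.3 with a counting interval of 13.9 to 3160 (edgeR adjusted p 4.9e-10). PIWIL2 and PIWIL4 were at trace level in both genotypes with overlapping groups, and PIWIL3 had 0 counts. TDRD5, a tudor protein of the pathway, rose from 0.317 ± 0.072 to 3.24 ± 0.55 CPM (SD, n = 3; log2 fold change 3.33, SE 0.25, edgeR adjusted p 2.5e-12). PIWIL1 lies on chromosome 12, with its median of 0.37. The piRNA methyltransferase HENMT1 rose by 0.76 on the log2 scale (edgeR adjusted p 5.0e-09) and TDRD7 by 0.72 (edgeR adjusted p 1.3e-12), while TDRKH, a mitochondrial tudor protein, fell by 0.58 (edgeR adjusted p 1.2e-07). TDRD6, like TDRD9, had counts in KO libraries only: 0 in control and 24 in all. Of the other untested genes, EXD1 (12 control and 33 KO counts) was higher in every KO library in CPM. RNF17 (7 and 2) was lower in every KO library.

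Of 43 other meiotic chromosome genes, 42 were matched and 16 tested. Among the 16, 9 were called higher and 7 lower, against 32.8% and 30.0% of all tested genes. SYCE2, SMC1B, BRME1, RNF212 and MAJIN passed the filter through the KO libraries alone and so could hardly have been called lower. The median log2 fold change was 0.62 with these 5 genes and -0.33 over the 11 that passed in both genotypes, where 4 were called higher and 7 lower. RNF212, a factor needed for crossovers, had 2, 0 and 3 counts in control and 559, 1170 and 550 in KO libraries. It rose from 0.0626 ± 0.055 to 24.2 ± 0.42 CPM (SD, n = 3; log2 fold change 8.33, SE 0.19, edgeR adjusted p 7.5e-24), a larger fitted change than that of SYCP2. With only 5 control counts this SE is too small. DESeq2 gave 8.42 with an SE of 0.651. MEIOB, which binds single-stranded DNA in meiotic recombination, rose from 4.34 ± 0.21 to 24.99 ± 1.5 CPM (SD, n = 3; log2 fold change 2.52, edgeR adjusted p 8.4e-20). Its partner SPATA22 had 0 counts in every library. BRME1 rose by 2.41 on the log2 scale (edgeR adjusted p 1.3e-09) and MAJIN, which ties telomeres to the nuclear envelope in meiosis, by 2.10 (edgeR adjusted p 7.1e-05). The 7 called lower were REC8, DMC1, PSMC3IP, MND1, MLH3, TRIP13 and ANKRD31. PRDM9, which places meiotic recombination sites, had 0 control counts and 8, 11 and 2 KO counts and was not tested. Other untested genes went the other way. TEX15 (19 control and 8 KO counts), MEIOSIN (11 and 2) and TERB1 (26 and 22) had every KO library below every control library in CPM.

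**Figure D4:**
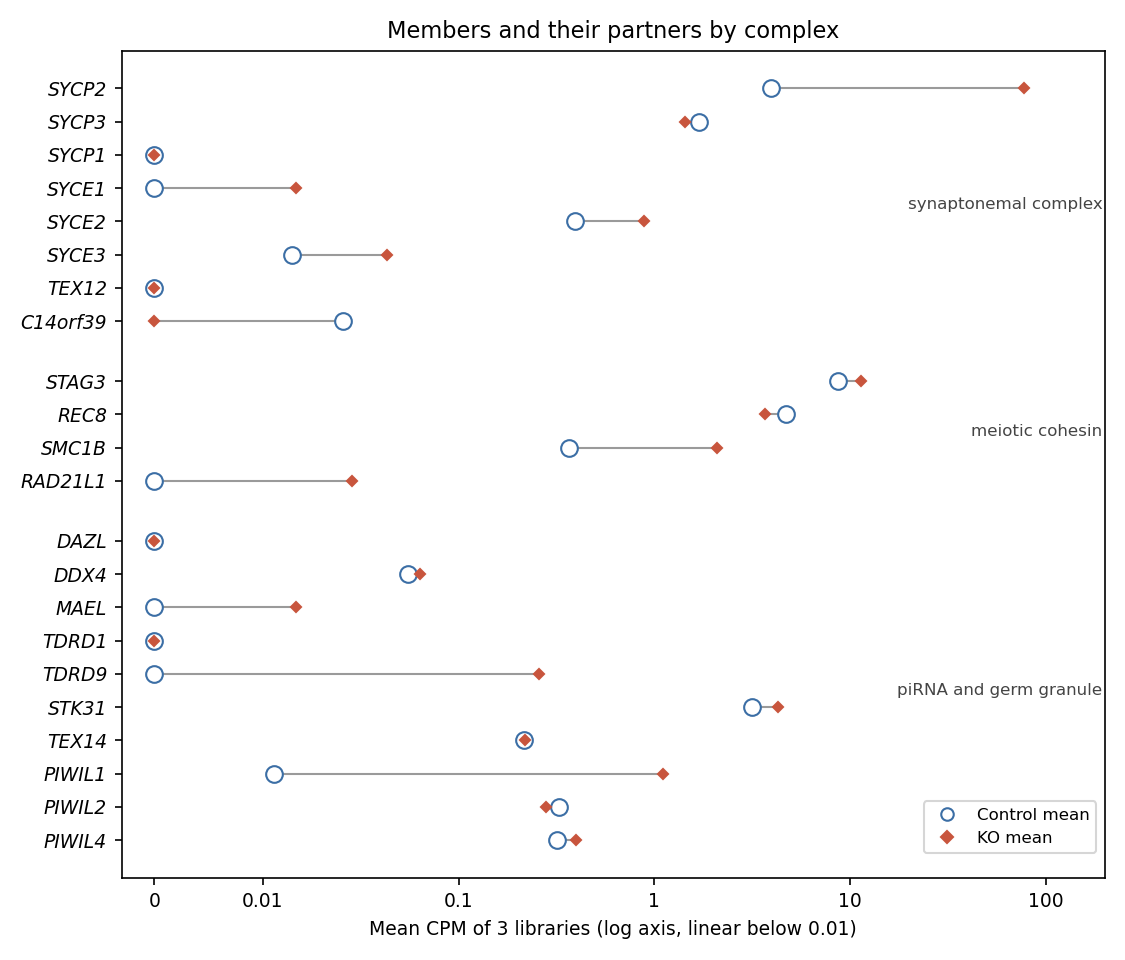
Mean CPM of 3 libraries in control (open circles) and KO cells (diamonds) for members and partner genes, on a log axis that is linear below 0.01. SYCP2, SMC1B, TDRD9 and PIWIL1 have their KO mean far to the right of the control mean, and SYCP1, TEX12, DAZL and TDRD1 lie at 0 in both.

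Of 32 other germ cell identity genes, 9 were tested, with a median log2 fold change of -0.062. Among the 9, 4 were called higher and 3 lower (3 higher and 3 lower under upper quartile scaling), against 32.8% and 30.0% of all tested genes. Over the 7 that passed in both genotypes, 3 were called higher and 3 lower. PRDM1, a repressor that specifies primordial germ cells and also acts in somatic lineages, fell from 13.3 ± 1.2 to 0.883 ± 0.30 CPM (SD, n = 3; log2 fold change -4.03, SE 0.15, edgeR adjusted p 1.6e-18). GFRA1, a receptor for GDNF used by spermatogonia and by neurons, fell from 43.3 ± 0.52 to 5.91 ± 0.26 CPM (SD, n = 3; log2 fold change -2.89, SE 0.070, edgeR adjusted p 2.2e-23). YBX2, a germ cell mRNA-binding protein, rose from 1.40 ± 0.16 to 6.92 ± 0.74 CPM (SD, n = 3; log2 fold change 2.33, edgeR adjusted p 4.9e-14). TEX19 rose by 1.24 on the log2 scale (edgeR adjusted p 0.00026) and MEIOC by 0.53 (edgeR adjusted p 3.4e-09). TEX19 passed the filter through the KO libraries alone, so its test could hardly have pointed down.

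Genes reported to silence germline promoters were expressed throughout: all 22 were tested, 3 were called higher and 13 lower (4 and 11 with library size only), with a median log2 fold change of -0.20. The share called was 72.7% here and 62.8% over all tested genes, of which 32.8% were higher and 30.0% lower. ATF7IP, the partner that stabilises SETDB1, rose from 65.1 ± 3.3 to 301 ± 12.7 CPM (SD, n = 3; log2 fold change 2.21, SE 0.048, edgeR adjusted p 2.0e-24). ATF7IP lies on chromosome 12, whose median was 0.37. E2F6, the factor whose core letters are shown above, fell by 0.47 on the log2 scale (SE 0.060, edgeR adjusted p 1.0e-07) on chromosome 2, whose median was -0.54. DNMT3B fell by 0.59 (edgeR adjusted p 8.6e-07) and CBX3, an HP1 protein, by 0.46 (edgeR adjusted p 4.8e-10), while RYBP rose by 0.38 (edgeR adjusted p 2.7e-06).

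The somatic relatives of the members were expressed in both genotypes. Of 8 genes tested, 0 were called higher and 4 lower (5 under upper quartile scaling), with a median log2 fold change of -0.14. The share called was 50% here and 62.8% over all tested genes, so it was not above the background. The cohesin subunit SMC3 fell by 0.81 on the log2 scale (SE 0.045, edgeR adjusted p 3.7e-15), RAD21 by 0.27 (edgeR adjusted p 1.6e-06), STAG2 by 0.23 (edgeR adjusted p 7.8e-05) and SMC1A by 0.19 (edgeR adjusted p 0.00082). Whether the difference between a meiotic subunit and its somatic relative exceeds the spread was not tested.

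**Figure D5:**
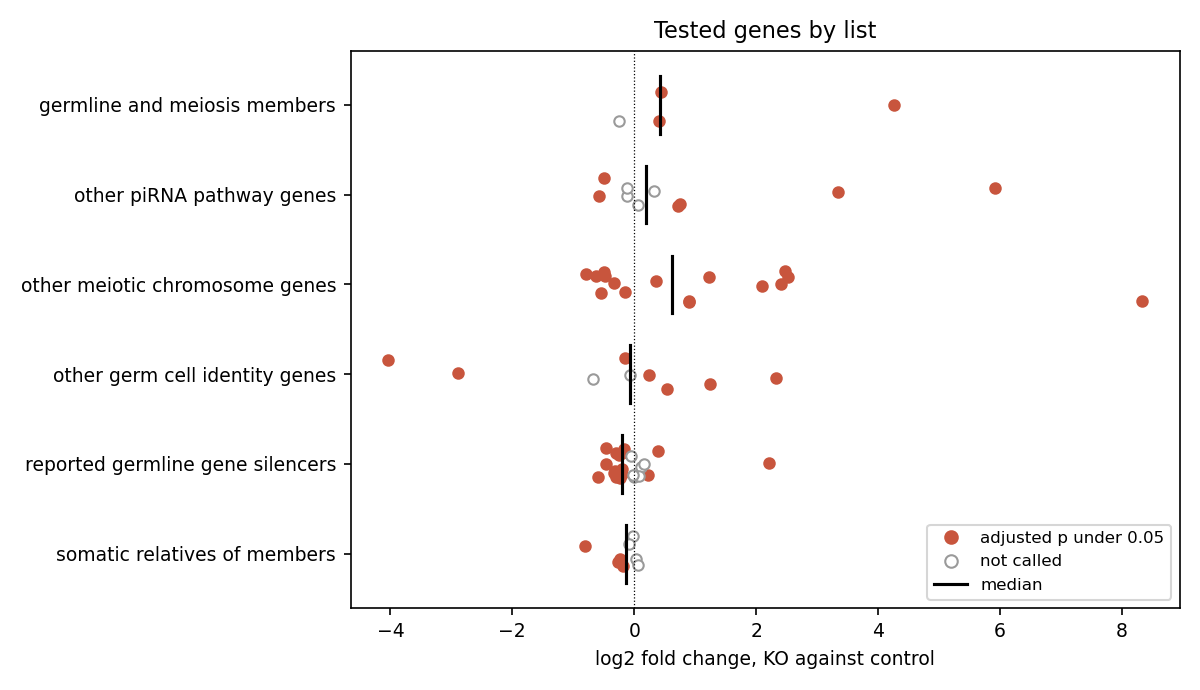
log2 fold change of the tested genes of each list; filled points passed an adjusted p of 0.05, open points did not, and bars are medians. The points farthest right are SYCP2 at 4.26, PIWIL1 at 5.91 and RNF212 at 8.33, each in its own list, and the farthest left is PRDM1 at -4.03.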

How the data were processed

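RNA-seq of A549 control and SETDB1 KO cells (3 libraries each) was used. Values were whole-number counts per gene as deposited by the authors. Libraries were made with a stranded total RNA kit, per the labels' protocols; hg19, STAR 2.6.1c and edgeR 3.30.0 are named in the submitters' processing notes, without roles. The counter, its strand setting and its treatment of shared reads are not given in the sources used here. Every library column was matched to a label (0 columns unused).

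Of the gene IDs, 93.8% had a symbol in the name table. Genotype was the single term of a robust quasi-likelihood model, fitted to the counts by edgeR 4.0.16 (R 4.3.3) after filterByExpr and TMM scaling, with Benjamini-Hochberg adjustment over 17767 genes at 0.05. The filter asked for about 0.426 CPM in 3 libraries. SE is the unshrunk coefficient over the root of F. Where control counts are few and the change is large, this SE understates the error. The DESeq2 SE was 0.651 for RNF212, 0.376 for TDRD5 and 0.381 for SMC1B. CPM used library totals scaled by TMM. Libraries of 1 genotype differed from each other by more than counting noise, and each was kept as a library of its own. That spread cannot tell separate cultures from repeat preparations of the same cells. Permutation tests used scipy 1.17.1.

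All members and SETDB1 were named, and from each list up to 5 called genes with the largest change and a mean of at least 10 counts in a genotype, and the nearest tested neighbour on each side of a called member; others were named after their values were seen. Members and lists were chosen with earlier results of these data known.

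Alternatives were other scalings, filters and tools (DESeq2 1.42.0, limma 3.58.1 voom), a replicate block, thinning to equal totals, leaving out mitochondrial genes, and leaving out each library. Peaks, domains and Hi-C were not analysed here, since no annotation of their build was used to place the members.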

Additional observations from a re-analysis of the deposited data

How the results depend on the processing

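Over 16 alternatives, 923 values were recomputed: 904 were labelled unchanged, 16 were weaker, 3 passed a threshold they had not passed, and 0 reversed. For a fold change, unchanged means the same direction and side of the threshold. The 904 also hold counts of called genes, which have no threshold of their own. Such counts were labelled unchanged even where they moved, so the 904 overstate the stability of the fold changes. Genes that failed the filter of 1 CPM in 3 libraries, or the filter after thinning, gave no value there. STK31 had a log2 fold change of 0.34 with libraries thinned to equal totals (edgeR adjusted p 0.077), where fewer counts follow from the setting. Leaving out each library gave SYCP3 -0.52 to -0.10; the cause was not tested. The other weaker or newly passing values belonged to REC8, PALS2, GPC2 and STAG3L3. Without control replicate 3 the fitted log2 fold change of PIWIL1 was 7.93, and without control replicate 1 that of PHACTR3 was 7.36, as no control count was then left. The count of members called was 2 to 4 and that of genes called 9759 to 11988. The labels give the replicate numbers no meaning as pairs, and not every correlation passed 0.1, so the numbers were not treated as pairs; weak pairing cannot be told from these values (correlations of same-numbered deviations 0.11, 0.064 and 0.047; 5 of 6 libraries correlated best with their own number). The replicate block called 11655 genes and 3 members, with SYCP2 at 4.26, STK31 at 0.44, STAG3 at 0.39 and SYCP3 at -0.26. Depth limits the members at trace level: none of them has over 15 counts in a library.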
